A study of Mus musculus with 27 samples.

Results

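The 10 genes described here are Angptl4, Stc1, Stc2, Vegfa, Adm, Slc2a1, Pdk1, Bnip3, Ndrg1 and Egln3, out of 25192 genes in the deposited count table. Angptl4 and Stc1 were chosen because both were higher after 2 h with imidazole propionate in the libraries labelled MAEC. The other 8 genes were set beside them because they are known to be induced in hypoxia, to ask whether that difference came with other hypoxia-induced genes and whether it was seen in other cells. Imidazole propionate (ImP) is a product of histidine breakdown by bacteria of the gut. RNA was sequenced from 27 mouse libraries in 9 groups of 3. MAEC-labelled cells, mouse embryonic fibroblasts (MEFs) and bone marrow-derived macrophages (BMDMs) were each taken after 1 h or 2 h with ImP at 10 µg/mL, and unstimulated, called 0 h here. The labels do not spell out MAEC, an abbreviation in common use for mouse aortic endothelial cells. Strain, sex and age of the mice are not given in the sources used here, and there was no vehicle group matched in time. MAEC-labelled cells were grown at lower numbers in smaller wells, their RNA was extracted with a different kit, and their libraries were made with a low-input kit instead of a directional one, so effects of kit and of cell type cannot be told apart. The labels do not say whether the 3 libraries of a group came from separate cultures or animals, so p-values measure only the spread between these libraries, which may be technical.

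In hypoxia the prolyl hydroxylases of the EGLN family, which use oxygen to mark the alpha subunits of hypoxia-inducible factor (HIF) for destruction, slow down, and HIF accumulates and binds DNA beside genes that carry a short core motif, A or G followed by CGTG. Its targets include secreted factors that act on vessels and metabolism, glucose transporters and glycolytic enzymes, and regulators of mitochondria. Angptl4 encodes an angiopoietin-like inhibitor of lipoprotein lipase and is also a classical target of the fatty acid-sensing PPAR receptors and of glucocorticoids. Stc1 and Stc2 encode the stanniocalcins, secreted glycoproteins. Vegfa encodes the main vascular endothelial growth factor, and Adm encodes adrenomedullin, a vasodilator peptide. Slc2a1 encodes the glucose transporter GLUT1, and Pdk1 the kinase that inhibits pyruvate dehydrogenase. Bnip3 encodes a mitophagy receptor, Ndrg1 an N-myc downstream-regulated protein, and Egln3 the HIF prolyl hydroxylase PHD3, itself induced by HIF.

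Promoter windows of 250 bases before the start site were read from RefSeq on GRCm38.p6, and 7 of the 10 genes were matched. Angptl4, Stc1 and Ndrg1 were not matched, so no promoter of the chosen pair was read. The motif searched was ACGTG or GCGTG, the letters of the HIF core, on either strand; the 2 forms can overlap on opposite strands, as in CACGTG. The first listed promoter of 6 of the 7 matched genes held at least 1 match, or 85.7%, against 38.6% of the first listed promoters of 27025 genes. Bnip3 held 5 matches, Slc2a1, Adm and Stc2 held 2 each, Pdk1 and Egln3 held 1 each, and the first listed Vegfa promoter held 0, while the second listed Vegfa start held 2. A match describes the letters only, and no match says only that they are not in this window. The promoters of Bnip3 (chr7:138909507-138909756, minus strand), Pdk1 (chr2:71872974-71873223, plus strand) and Egln3 (chr12:54203875-54204124, minus strand) are shown. These 3 are among several genes that differed together between MEF libraries, as described with the MEF values. Slc2a1 and Adm are others with a matched promoter. Matches are in capitals and every other base is in lower case.
Bnip3: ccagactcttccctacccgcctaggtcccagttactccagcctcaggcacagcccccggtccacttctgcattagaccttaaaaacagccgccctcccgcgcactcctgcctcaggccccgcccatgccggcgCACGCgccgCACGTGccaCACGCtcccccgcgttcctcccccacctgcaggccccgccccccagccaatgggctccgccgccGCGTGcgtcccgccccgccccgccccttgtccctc
Pdk1: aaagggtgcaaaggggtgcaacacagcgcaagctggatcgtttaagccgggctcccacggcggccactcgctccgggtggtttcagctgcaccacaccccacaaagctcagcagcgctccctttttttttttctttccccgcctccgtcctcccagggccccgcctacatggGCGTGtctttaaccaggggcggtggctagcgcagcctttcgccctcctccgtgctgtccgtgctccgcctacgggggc
Egln3: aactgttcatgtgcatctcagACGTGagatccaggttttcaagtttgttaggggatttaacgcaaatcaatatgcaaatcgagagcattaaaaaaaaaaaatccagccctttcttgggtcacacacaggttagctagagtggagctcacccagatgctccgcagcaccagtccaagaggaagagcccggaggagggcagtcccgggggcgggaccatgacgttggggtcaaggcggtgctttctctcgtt

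Library totals ran from 18955352 to 61029374 counts in MAEC-labelled libraries, from 30554596 to 36489015 in MEF libraries and from 28754034 to 35583478 in BMDM libraries. All 12 macrophage markers were at 10 CPM or more in BMDM libraries, where CPM is a count scaled by TMM to the library total. In MAEC-labelled libraries 1 of 14 endothelial markers (Eng, 105 CPM) reached 10 CPM, 8 were under 1 CPM and Robo4 was listed at 0, while 9 of 11 fibroblast and 5 of 8 smooth muscle markers reached 10 CPM. The endothelial list was thus mostly absent, and these libraries are called MAEC-labelled throughout. The endothelial list summed to 94.4 to 131 CPM at 0 h, to 116 to 132 CPM at 1 h and to 94.5 to 132 CPM at 2 h. The fibroblast list was only partly present in MEF libraries, where 4 of 11 markers reached 10 CPM, with Col1a1 highest at 2370 CPM, and 4 were under 1 CPM. In BMDM libraries the third replicates at 1 h and at 2 h went against their labels in the early inflammatory genes: Tnf was 14 to 15.2 CPM at 0 h, then 227, 220 and 18.3 CPM at 1 h, then 14.3, 18.5 and 266 CPM at 2 h. BMDM values of Angptl4 and Vegfa are given with and without both libraries.

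The 10 genes were spread over very different levels in the 3 kinds of cell, and no cell type was highest for all of them. Levels are given per length, as CPM per kb of exon over all 9 libraries of a cell type (mean ± SD, n = 9). Angptl4 was highest in MAEC-labelled libraries at 56.3 ± 15, against 21.8 ± 4.15 in MEF libraries and 2.32 ± 0.433 in BMDM libraries, with no overlap between cell types. Adm was highest in MAEC-labelled libraries too, at 159 CPM per kb, against 0.58 in MEF and 0.241 in BMDM libraries. Stc1 was 3.61 in MAEC-labelled and 2.99 in MEF libraries, whose ranges overlapped. Stc1 in BMDM libraries summed to 7 counts over all 9 libraries, and Stc2 there to 0 counts. Stc2 was low everywhere, at 0.258 CPM per kb in MAEC-labelled libraries and 12 counts in all in MEF libraries.

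The metabolic and mitochondrial genes were highest in MEF libraries, with no shared order of the other cell types. Slc2a1 averaged 21.6, 63.7 and 10.8 CPM per kb in MAEC-labelled, MEF and BMDM libraries, and Bnip3 averaged 49.3, 117 and 12.8. MEF libraries were highest for both. Pdk1 averaged 1.75, 14.6 and 8.7 CPM per kb in the same order, Ndrg1 0.531, 44.8 and 13.4, and Egln3 0.952, 13.1 and 0.256. Vegfa was 1.75 CPM per kb in MAEC-labelled libraries, against 30.2 in MEF and 28.2 in BMDM libraries, and the MEF and BMDM groups at neighbouring levels overlapped. The MAEC-labelled libraries thus held high Angptl4 and Adm beside low Vegfa, Pdk1 and Ndrg1, at 0 h as at 2 h. Egln3 there lay between its levels in MEF and BMDM libraries.

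**Figure D1:**
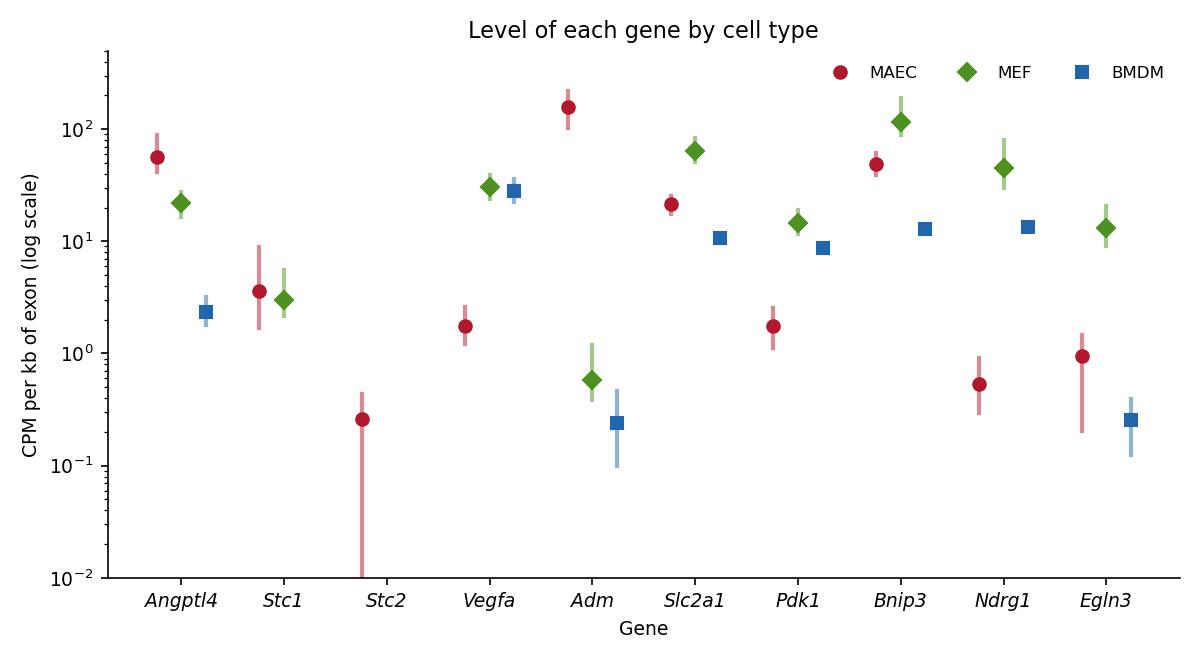
Level of each gene by cell type, as CPM per kb of exon on a log axis; markers are means over 9 libraries and lines run from the lowest to the highest library. Stc1 in BMDM and Stc2 in MEF and BMDM libraries lie under the axis and are not drawn, and the Stc2 line in MAEC-labelled libraries runs to a library at 0. Angptl4 and Adm are highest in MAEC-labelled libraries, and Slc2a1, Pdk1, Bnip3, Ndrg1 and Egln3 in MEF libraries.

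Unstimulated MEF and BMDM libraries share a library kit. Between them, 8 of the 10 genes were higher in MEF libraries and 0 were lower by edgeR's quasi-likelihood test (Benjamini-Hochberg adjusted p under 0.05). Stc1 is counted among the 8, but it passed the filter on low counts only through MEF and MAEC-labelled libraries. Its call follows from that and is a description, not a test. Cell types differ widely: of all 17038 genes tested, 68.3% passed, 35.5% higher and 32.7% lower. Angptl4 was higher in MEF than in BMDM libraries by 2.97 on the log2 scale (SE 0.19, 7.81-fold, adjusted p = 2.22e-13), at 67.4 to 97.5 CPM in MEF libraries, against 7.16 to 9.63 CPM in BMDM libraries at 0 h. Egln3 was higher by 5.78 (SE 0.526, adjusted p = 3.59e-10), Bnip3 by 2.96 (SE 0.184, adjusted p = 1.25e-13) and Slc2a1 by 2.27 (SE 0.138, adjusted p = 7.38e-14). Ndrg1 was 2.6-fold higher and Pdk1 1.47-fold higher. Stc1 had 1208 counts over the 3 MEF libraries and 0 counts over the 3 BMDM libraries, which is at least 390-fold higher against a floor of 3 counts over the group. Adm was 2.31-fold higher (adjusted p = 0.025), but at 96 against 30 counts in all, and its call was lost when any of 3 single libraries was left out. Vegfa did not differ by the test (log2 fold change -0.02, SE 0.194, adjusted p = 0.947), nor did Stc2 at 9 against 0 counts (adjusted p = 0.0842). Stc2 passed the filter on low counts only through MAEC-labelled libraries. Among other hypoxia targets 15 of 26 were higher in MEF libraries and 5 were lower, with a median log2 fold change of 1.39, against 0.0655 over all genes. The glycolytic enzymes split 13 higher and 5 lower of 19, led by Eno1 and Pgk1, both higher. Of the HIF control genes 4 of 9 tested were higher, Hif1a among them (1.09, SE 0.146), and 4 were lower, with Epas1, which encodes the HIF-2 alpha subunit, at -3.42 (SE 0.36). With library totals alone instead of TMM scaling, the median of all genes moved to 0.48. The split over all genes then became 7621 higher and 4334 lower, against 6057 and 5578. The count of the 10 genes was still 8, Stc1 included.

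In MAEC-labelled libraries Angptl4 and Stc1 were the 2 genes on which the choice rests, so their values at 2 h are a description without a test. Angptl4 (chr17:33773750-33781830, minus strand, GRCm38) was 172, 162 and 165 CPM at 0 h, 181, 184 and 181 CPM at 1 h, then 253, 324 and 234 CPM at 2 h. All 3 libraries at 2 h lay above every library at 0 h and 1 h, and the 1 h libraries lay just above the 0 h range. The change at 2 h was 0.70 on the log2 scale (SE 0.124), or 1.63-fold. Stc1 (chr14:69029238-69041804, plus strand) was 7.85, 7.69 and 11.1 CPM at 0 h, 10.7, 11.1 and 13.4 CPM at 1 h, then 23.5, 38.8 and 16.9 CPM at 2 h. Its 2 h libraries again lay above all others, with a wider spread among them, and the change at 2 h was 1.57 (SE 0.289), or 2.98-fold. Replicate 2 was the highest 2 h library for both genes: without it the changes were 0.55 for Angptl4 and 1.19 for Stc1. The 1 h libraries were not part of the choosing contrast. Their changes are against the same 0 h libraries, so they are not independent of the choice. These changes were 0.13 for Angptl4 (SE 0.123, adjusted p = 0.852) and 0.40 for Stc1 (SE 0.286, adjusted p = 0.826), and neither passed the test. An exon of the unnamed gene Gm41192 overlaps Stc1 on the opposite strand, and since the strand of counting is not given in the sources used here, Stc1 counts are uncertain to that extent; Slc2a1, Bnip3 and Ndrg1 have such opposite-strand partners too, and Angptl4 has none.

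In bulk libraries fewer cells of a type and less RNA per cell cannot be told apart. Smooth muscle markers summed to 849 to 1240 CPM at 2 h, against 1200 to 1420 CPM at 0 h, and the part of such differences in the values of Angptl4 and Stc1 was not tested.

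The other 8 genes did not move as 1 group at 2 h in MAEC-labelled libraries, and none of them passed the test. By edgeR 0.0% of 14779 genes passed at 1 h and 0.0% at 2 h, with 733 and 1361 genes at an unadjusted p under 0.05 and 3 and 25 genes passing by DESeq2. Of the 8 genes, 2 (Vegfa and Adm) had an unadjusted p under 0.05 at 2 h, in opposite directions, and 0 passed by DESeq2. The edgeR fit found 8% of simulated 1.5-fold changes at 2 h, so not passing does not show that a gene was level. Among the secreted factors, Vegfa was 7.75, 11.6 and 9.47 CPM at 2 h, against 7.29, 6.11 and 5.26 CPM at 0 h, a log2 fold change of 0.62 (SE 0.285, adjusted p = 0.541). Its 2 h libraries did not overlap those at 0 h, by a narrow margin. Adm went the other way, at 206, 171 and 265 CPM at 2 h, against 224, 338 and 361 CPM at 0 h, with ranges that overlapped (-0.52, SE 0.184, adjusted p = 0.539). Stc2, the relative of Stc1, was 1.09, 0.726 and 1.67 CPM at 2 h, against 1.8, 2.44 and 0 CPM at 0 h, and its log2 fold change of -0.28 had an SE of 1.04.

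Among the genes of glucose use and mitochondria, Slc2a1 was 89.2, 86.8 and 84.5 CPM at 2 h, against 67.4, 78.1 and 72.0 CPM at 0 h (0.26, SE 0.123, adjusted p = 0.545). The 2 h libraries were tightly placed above the 0 h range. Pdk1 was 16.9, 14.2 and 21 CPM at 2 h, against 11.5, 16.7 and 11.9 CPM at 0 h, and these ranges overlapped (0.38, SE 0.235). Bnip3 was 90.2, 108 and 118 CPM at 2 h, against 121, 122 and 139 CPM at 0 h, so every 2 h library lay under the 0 h range (-0.28, SE 0.137, adjusted p = 0.558). Ndrg1 and Egln3 were low, at 2.68 to 5.66 and 1.55 to 3.11 CPM at 2 h, against 1.94 to 3.92 and 1.34 to 3.33 CPM at 0 h, and both overlapped. In all, 4 of the 10 genes (Angptl4, Stc1, Vegfa and Slc2a1) had all 3 libraries at 2 h above the 0 h range, where 8.38% of all genes did, and 1 (Bnip3) had all 3 below it, where 8.48% did; the first 2 of these were chosen on this contrast. At 1 h Angptl4 was the 1 gene of the 10 outside the 0 h range, above it, as were 5.36% of all genes. That range comes from the 0 h libraries of the choosing contrast. Below it were 0 of the 10, against 4.89% of all genes. The median log2 fold change of the 10 genes at 2 h was 0.321, with 6 positive, against 0.0149 over all genes, and it includes the chosen pair.

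**Figure D2:**
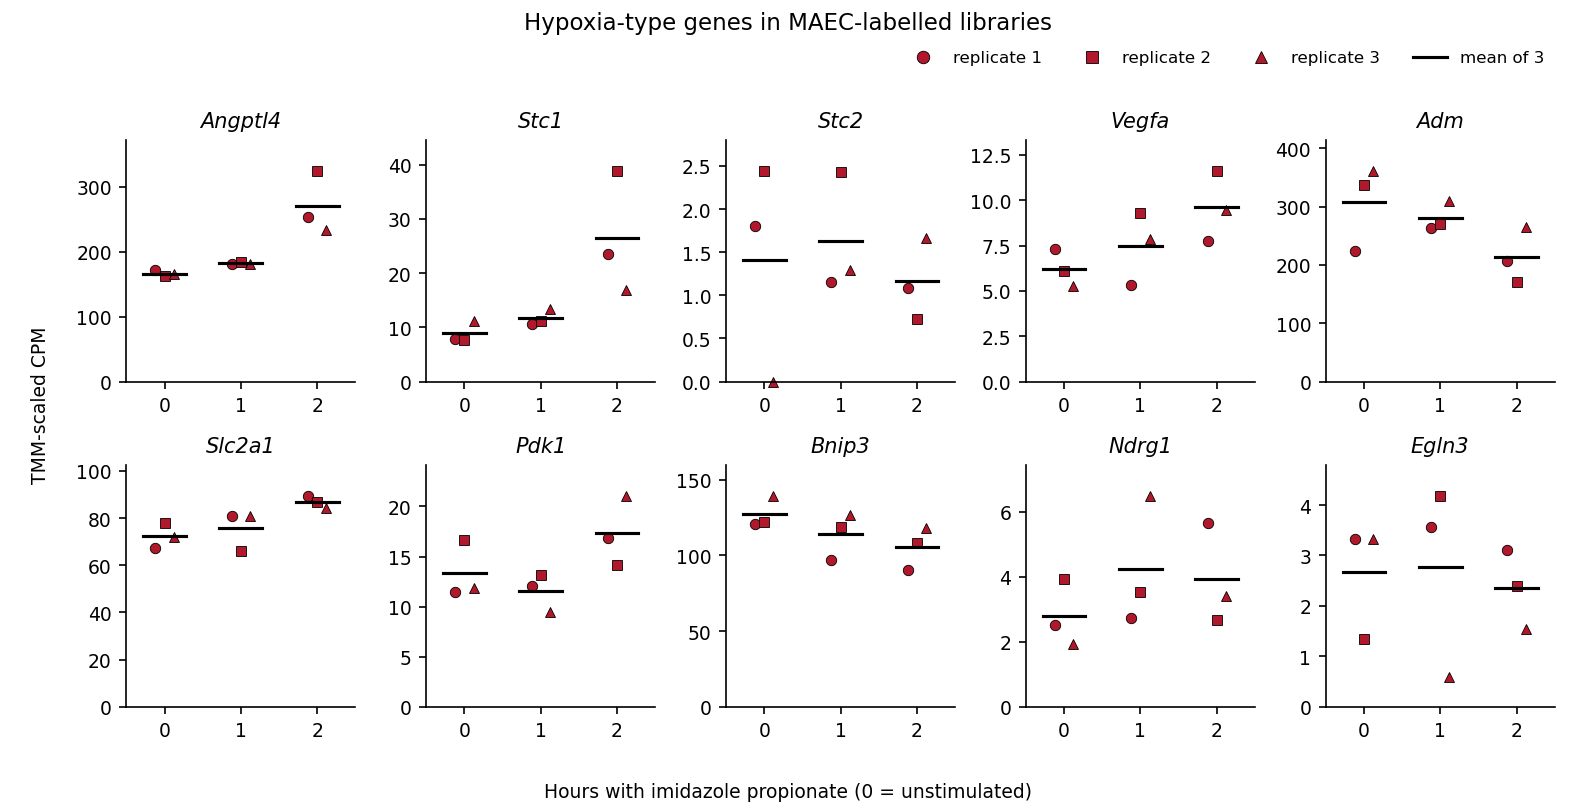
TMM-scaled CPM of the 10 genes in MAEC-labelled libraries against hours with ImP, each panel on its own axis from 0; symbols are the 3 libraries of a group and lines their means. Angptl4 and Stc1 at 2 h lie above all earlier libraries, with replicate 2 highest at 324 and 38.8 CPM; Bnip3 and Adm have lower means at 2 h, and Stc2, Ndrg1 and Egln3 scatter at a few CPM.

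Genes around HIF gave no passing member in MAEC-labelled libraries at 2 h either. Of 26 other hypoxia targets 0 passed, 16 were positive and their median log2 fold change was 0.07; the smallest p values were for Higd1a (-0.37) and Ppp1r3c (-0.90), both lower at 2 h. Of 18 glycolytic enzymes tested 0 passed and 10 were positive, with a median of 0.0142, nearly that of all genes. Tpi1 and Pgk1, which had the smallest p values there, were lower (-0.32 and -0.29), with Pgk1 at 340, 388 and 362 CPM at 2 h, against 364, 435 and 539 CPM at 0 h. Of 9 HIF control genes tested 7 were positive, with a median of 0.241. Hif1a itself was 170, 157 and 152 CPM at 2 h, against 141, 148 and 77.1 CPM at 0 h (0.39, SE 0.194, adjusted p = 0.56), with 1 low library at 0 h. Arnt2, which encodes a dimerization partner of HIF alpha subunits, was at 0.71 (SE 0.355, adjusted p = 0.555). Receptors and partners of the secreted factors were positive in 8 of 10 tested genes, with a median of 0.308 and 0 passing. Among them the VEGF receptor gene Flt1 was 8.82, 8.63 and 8.75 CPM at 2 h, against 6.14, 6.45 and 4.16 CPM at 0 h, and the VEGF co-receptor gene Nrp2 was 5.22, 6.9 and 7.23 CPM at 2 h, against 4.15, 3.01 and 2.86 CPM at 0 h. Neither passed (adjusted p = 0.539 for both).

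Angptl4 answers to other regulators as well, and the lists for these gave no passing gene in MAEC-labelled libraries at 2 h. PPAR targets had 7 of 14 positive and a median of 0.0091, with Etfdh at -0.22. Glucocorticoid targets had 7 of 11 positive and a median of 0.0697, with Errfi1, a feedback inhibitor of the EGF receptor, at 0.59 (SE 0.14, adjusted p = 0.539) and Lcn2 at 1.16 (SE 0.813). TGF-beta targets had 8 of 16 positive and a median of 0.0236, and Tgfbi, a secreted matrix protein, was at 0.41 (SE 0.0966, adjusted p = 0.539), and Bhlhe40, also known as a hypoxia-induced gene, at 0.35 (SE 0.124, adjusted p = 0.539). Genes of the integrated stress response had 6 of 15 positive and a median of -0.12, with Ddit3 at -0.36 and Chac1 at -0.66. Paralogs of the 10 genes had 10 of 16 positive and a median of 0.09; Angptl2 was at 0.30 and Angptl7 at -2.17, and neither passed.

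Over the 9 MAEC-labelled libraries, the gene most like Angptl4 by Pearson correlation among 11739 was Stc1, and the reverse held too. Pearson r was 0.963 on log2(CPM + 1), and Spearman rho was 0.817. These are descriptions with no p, since the libraries share depth and group structure and the pair was chosen for its level at 2 h. Next for Angptl4 came Il33 (r = 0.949, rho = 0.867), Tgfbi (0.94 and 0.933), Ceacam1 (0.938 and 0.95) and Nptx1 (0.929 and 0.967). Next for Stc1 came Ceacam1 (r = 0.925, rho = 0.833), Il33 (0.913 and 0.75), Plet1 (0.902 and 0.917) and Tgfbi (0.899 and 0.833). The order depended on the measure: by Spearman neither Angptl4 nor Stc1 was among the 5 genes nearest to the other. Only Ceacam1 and Nptx1 for Angptl4, and Plet1 for Stc1, were among the nearest 5 by both measures. Il33, which encodes an alarmin cytokine, was 10.2, 9.12 and 7.05 CPM at 0 h, 8.18, 14.8 and 12.5 CPM at 1 h, then 22.9, 49.0 and 16.0 CPM at 2 h. Its highest library was replicate 2 at 2 h, as for Stc1 and Angptl4. Nptx1, which encodes neuronal pentraxin 1, was 19.9, 17.3 and 15.3 CPM at 0 h, 30.4, 25.8 and 20.5 CPM at 1 h, then 39.1, 53.0 and 32.1 CPM at 2 h. None of the 8 other hypoxia-induced genes was among the nearest 5 of either gene by Pearson correlation. With Angptl4, Vegfa (r = 0.76) and Slc2a1 (0.68) came closest, and Adm ran opposite (-0.82).

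In MEF libraries the hypoxia-type genes moved together from library to library, and the largest differences lay between replicates of 1 group. By edgeR 0.0% of 14066 genes passed at 1 h and 0.0% at 2 h, with 826 and 342 genes at an unadjusted p under 0.05 and 12 and 4 genes passing by DESeq2. Of 9 tested genes (Stc2 did not pass the filter on low counts) 0 passed at either time, with Vegfa and Slc2a1 at an unadjusted p under 0.05 both times. Replicate 1 at 1 h was the highest of all 9 MEF libraries for 7 of the 9 genes, or 77.8%, where it was the highest for 20.3% of all genes tested. Those 7 are Stc1, Adm, Slc2a1, Pdk1, Bnip3, Ndrg1 and Egln3. Replicate 1 at 1 h was above the 0 h range for 8 of the 9 genes (30.4% of all genes), and replicate 2 at 1 h and replicates 1 and 2 at 2 h for 7 each (26.8%, 21% and 21.8% of all genes). Replicate 3, by contrast, was above the 0 h range for 2 of the 9 genes at 1 h (28.7% of all genes) and for 2 at 2 h (24%). It was below that range for 3 at 1 h (27% of all genes) and for 4 at 2 h (25%).

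Ndrg1 was 292, 278 and 230 CPM at 0 h, 587, 377 and 218 CPM at 1 h, then 388, 384 and 231 CPM at 2 h. Replicates 1 and 2 at both times were above the 0 h range, and replicate 3 at 1 h was below it. Bnip3 was 302, 239 and 228 CPM at 0 h, 476, 330 and 239 CPM at 1 h, then 309, 321 and 225 CPM at 2 h. Replicates 1 and 2 were again above the 0 h range at both times, and replicate 3 was inside it at 1 h and below it at 2 h. Egln3 had replicates 1 and 2 above the 0 h range and replicate 3 below it at both times, at 37.4, 32.7 and 31.4 CPM at 0 h, 61.4, 43.3 and 29.2 CPM at 1 h, then 43.6, 45.3 and 26.8 CPM at 2 h. Pdk1 differed less, at 135, 103 and 111 CPM at 0 h, 167, 143 and 109 CPM at 1 h, then 137, 142 and 101 CPM at 2 h, with the same libraries high.

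Among the secreted factors Stc1 was 12.9, 11.5 and 11.3 CPM at 0 h, 26.2, 15.4 and 10.2 CPM at 1 h, then 14.4, 14 and 10.8 CPM at 2 h, so that in MEF libraries it followed Ndrg1 and Bnip3. Its log2 fold changes were 0.53 at 1 h (SE 0.284, adjusted p = 0.855) and 0.13 at 2 h (SE 0.284), and without replicate 1 at 1 h the first of these was 0.10. The change of Ndrg1 at 1 h likewise was 0.56 with all libraries and 0.15 without that replicate. Vegfa was 115, 121 and 120 CPM at 0 h, 157, 187 and 124 CPM at 1 h, then 184, 174 and 121 CPM at 2 h. It was above the 0 h range in all 3 libraries at 1 h, where 4.99% of all genes were above it and 5.02% below (0.39, SE 0.173, adjusted p = 0.846), and the change at 2 h was 0.43 (SE 0.172). Slc2a1 was 214, 204 and 210 CPM at 0 h, 323, 274 and 209 CPM at 1 h, then 284, 313 and 222 CPM at 2 h, and was above the 0 h range in all 3 libraries at 2 h, where 4.51% of all genes were above it and 4.49% below (0.38, SE 0.156). Adm was low, between 0.698 and 2.16 CPM over all MEF libraries.

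Angptl4 did not follow the other hypoxia-type genes in MEF libraries. It was 97.5, 67.4 and 95.3 CPM at 0 h, 65.7, 73.7 and 107 CPM at 1 h, then 80.4, 84.7 and 109 CPM at 2 h. Its lowest library was replicate 1 at 1 h, where 7 of the other genes were highest, and its highest was replicate 3 at 2 h, where Pdk1, Bnip3 and Egln3 were lowest. Its log2 fold changes were -0.08 at 1 h (SE 0.212, adjusted p = 0.969) and 0.07 at 2 h (SE 0.212).

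**Figure D3:**
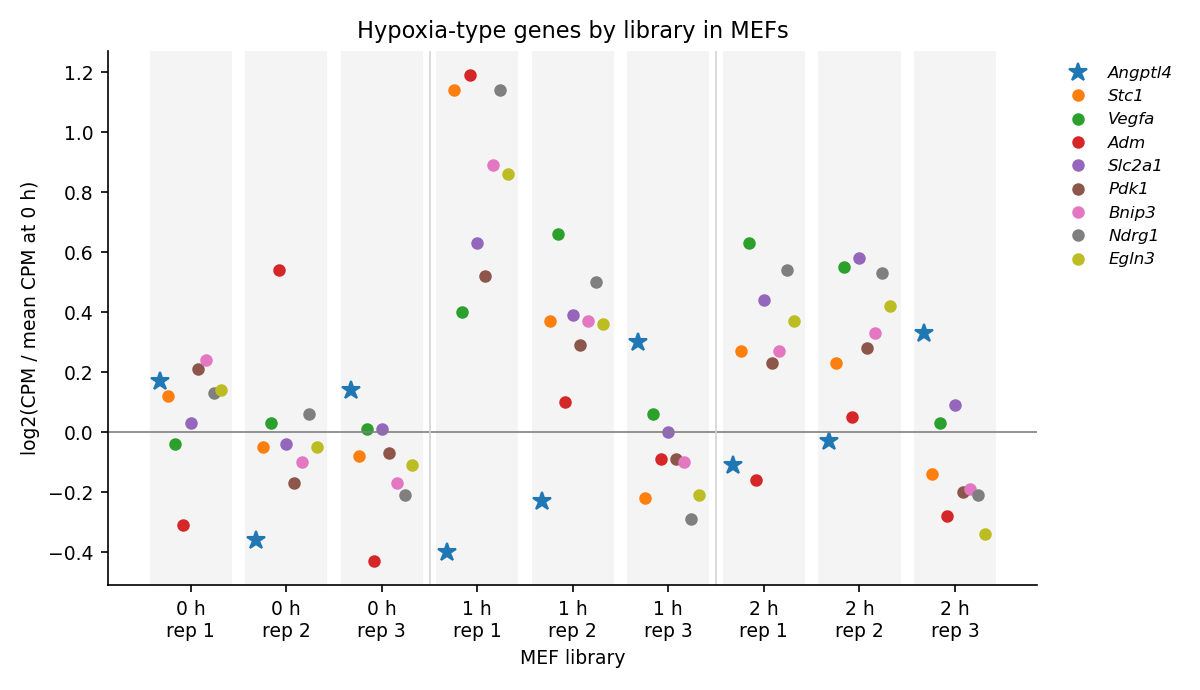
Log2 ratio of each gene's CPM to its mean at 0 h in the 9 MEF libraries; each column is 1 library, dots are 8 hypoxia-type genes and stars are Angptl4. The dots lie high in replicate 1 at 1 h (Ndrg1 and Stc1 at 1.14) and at or near the 0 h level in replicate 3 at 1 h and 2 h, where the stars lie highest (0.30 and 0.33).

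In the wider hypoxia lists replicate 1 at 1 h was again the highest MEF library for most genes, while single genes differed in where replicate 3 lay. Other hypoxia targets were positive at 1 h in 24 of 25 tested genes, with a median log2 fold change of 0.231, against 0.00524 over all genes, and 0 passed (3 at an unadjusted p under 0.05). Their median log2 ratio to the 0 h mean was 0.547, 0.174 and -0.076 in the 3 libraries at 1 h and 0.125, 0.208 and -0.135 in those at 2 h. For the 9 genes the same medians were 0.85, 0.355 and -0.094 at 1 h and 0.269, 0.327 and -0.175 at 2 h. Replicate 1 at 1 h was the highest of 9 libraries for 21 of the 25 other targets and for 13 of 19 glycolytic enzymes. Hilpda, which encodes a lipid droplet protein, was 32.1, 27.2 and 23.1 CPM at 1 h, against 18.6, 22 and 20.8 CPM at 0 h (0.42, SE 0.137, adjusted p = 0.846). Ldha, which encodes lactate dehydrogenase A, was 2710, 2460 and 2530 CPM at 1 h, against 2440, 1990 and 2250 CPM at 0 h (0.21, SE 0.0759, adjusted p = 0.846). For Hilpda and Ldha replicate 3 at 1 h was above the 0 h range too. Hif1a transcript was level, at 360 to 393 CPM at 0 h, 358 to 378 CPM at 1 h and 382 to 413 CPM at 2 h. At 1 h the integrated stress response list was positive in 14 of 15 genes, and replicate 1 at 1 h was the highest library for 11 of them. Replicate 1 at 1 h held 31196595 counts and replicate 3 at 1 h held 33133537. What set these libraries apart, depth included, was not tested.

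In BMDM libraries Slc2a1, Pdk1, Bnip3 and Ndrg1 differed little from library to library, while Angptl4, Vegfa and the low Egln3 and Adm differed more. Of 8 tested genes (Stc1 and Stc2 did not pass the filter on low counts) 0 passed at either time, where 0.0226% of 13251 genes passed at 1 h and 0.0302% at 2 h; Angptl4 alone had an unadjusted p under 0.05, at both times, and 0 passed by DESeq2. Slc2a1 stayed between 29.9 and 34.5 CPM, Pdk1 between 53.7 and 61.6 CPM, Bnip3 between 23.6 and 27.8 CPM and Ndrg1 between 70.5 and 80.4 CPM over all 9 libraries. Adm ran from 0.14 to 0.64 CPM. Angptl4 was 7.16, 9.63 and 8.5 CPM at 0 h, 6.68, 7.15 and 5.47 CPM at 1 h, then 5.82, 6.21 and 7.13 CPM at 2 h. At each time all 3 libraries were under the 0 h range, where 5.61% of all genes were at 1 h and 6.31% at 2 h. The margin was narrow, with highest values of 7.15 and 7.13 CPM, against a lowest 0 h value of 7.16 CPM. The log2 fold changes of -0.39 (SE 0.157, adjusted p = 0.922) and -0.40 (SE 0.157, adjusted p = 0.746) did not pass. Without the third replicates at 1 h and 2 h they were -0.29 and -0.49, and did not pass either. Egln3 was above the 0 h range in all 3 libraries at 1 h, as were 4.78% of all genes, at 0.653 to 0.905 CPM, against 0.285 to 0.604 CPM at 0 h, from 79 counts against 45 in all (0.75, SE 0.445). At 2 h 0 of the 8 were above it, against 5.24% of all genes.

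Vegfa in BMDM libraries followed the libraries that stood out by their inflammatory genes. It was 105, 82.5 and 87.6 CPM at 0 h, 132, 131 and 84.9 CPM at 1 h, then 96.1, 92.6 and 125 CPM at 2 h. The 3 highest libraries were replicates 1 and 2 at 1 h and replicate 3 at 2 h, the same 3 that were high in Tnf and in Nfkbia, which encodes the NF-kappa-B inhibitor alpha. With all libraries the change at 1 h was 0.34 (SE 0.204, adjusted p = 0.954). Without the third replicates at 1 h and 2 h it was 0.52 (adjusted p = 0.00989), which passed, in a fit where 125 genes passed in place of 3. These libraries were left out for their Tnf and Nfkbia values, which Vegfa followed. The pass is thus not independent of which libraries were left out. The change of Vegfa at 2 h was 0.19 with all libraries and 0.04 without these 2. In the library codes, replicate 3 at 1 h is number 23 and replicate 3 at 2 h is number 22. In every other run of codes the 1 h library comes before the 2 h library. Whether the labels of the 2 libraries are exchanged was not tested.

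**Figure D4:**
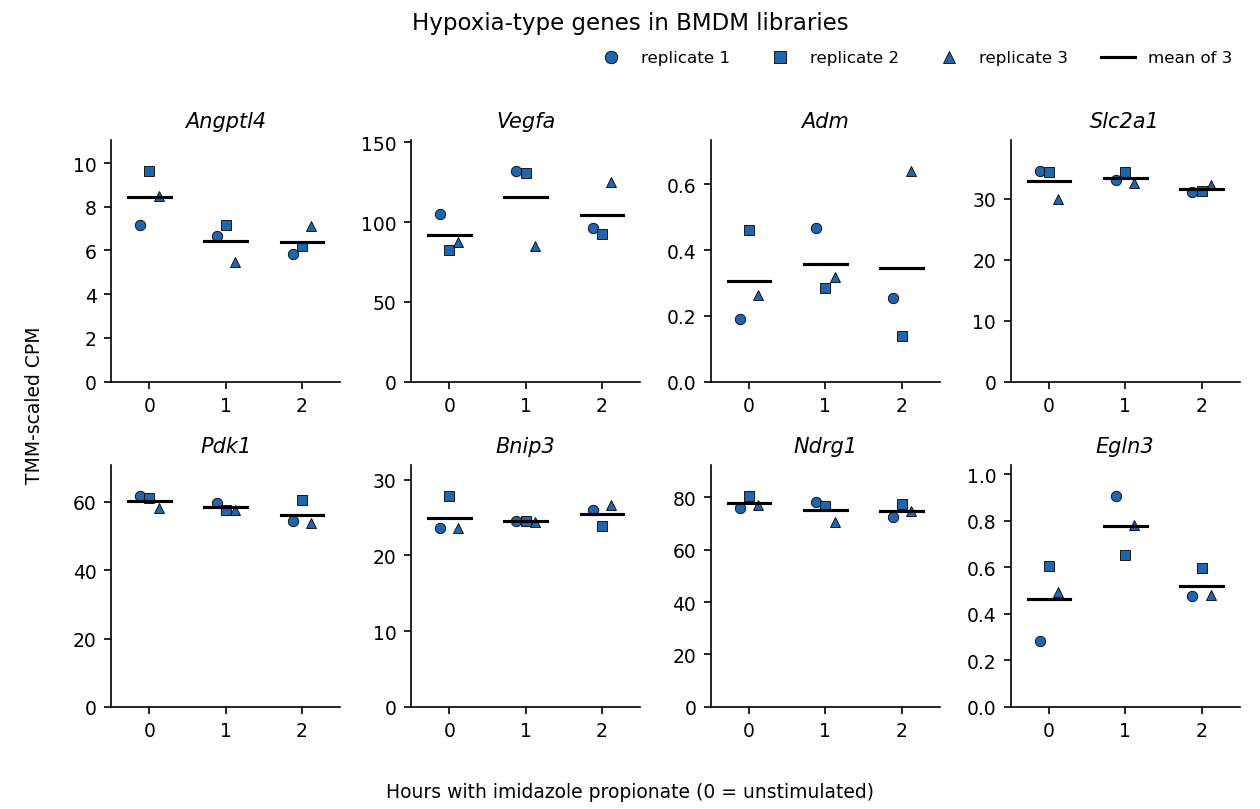
TMM-scaled CPM of the 8 tested genes in BMDM libraries against hours with ImP, each panel on its own axis from 0; symbols are the 3 libraries of a group and lines their means. Angptl4 at 1 h and 2 h lies narrowly under its 0 h libraries, and Vegfa is high in replicates 1 and 2 at 1 h and in replicate 3 at 2 h.

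Other hypoxia targets gave 0 passing genes of 23 tested in BMDM libraries at each time, with medians of 0.0366 at 1 h and 0.0441 at 2 h. Glycolytic enzymes had medians of 0.012 and 0.053, with 10 of 19 positive at each time and 0 passing. Hk2, which encodes hexokinase 2, was 50.7, 55.2 and 56.1 CPM at 2 h, against 40.7, 33.8 and 50.8 CPM at 0 h (0.37, SE 0.121, adjusted p = 0.744). The 3 genes that passed at 1 h over all genes were all on the TGF-beta target list, where 16 of 16 were positive. That list was chosen with earlier results of these data known, so this overlap may follow from the choice and supports nothing. Id2 rose by 0.97 (SE 0.0612, adjusted p = 2.55e-06), Skil by 0.91 (SE 0.103, adjusted p = 0.007) and Bhlhe40 by 0.49 (SE 0.0626, adjusted p = 0.007). Bhlhe40, a transcriptional repressor, is known as a hypoxia-induced gene too. All 3 passed at 2 h too, where 4 genes passed in all.

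The changes at 2 h are set side by side here, each relative to the 0 h libraries of the same cell type. Angptl4 changed by 0.70 in MAEC-labelled, 0.07 in MEF and -0.40 in BMDM libraries, and Stc1 by 1.57 in MAEC-labelled and 0.13 in MEF libraries; the MAEC values chose these genes, so these gaps are not tested. Vegfa changed by 0.62, 0.43 and 0.19 in MAEC-labelled, MEF and BMDM libraries, all positive and none passing. A joint fit of all 27 libraries was used for differences in the 2 h change. Between MAEC-labelled and MEF libraries 0 of the 7 genes other than the chosen pair and Stc2 differed. There 0.0% of 17038 genes passed by edgeR, with 1351 at an unadjusted p under 0.05, and 66 passed by DESeq2. Stc2, at 12 counts in all in MEF libraries, is left out of this difference. Between MAEC-labelled and BMDM libraries 0 of the 7 genes other than the chosen pair and Stc2 differed, where 0.0528% of genes passed, 0.0176% higher and 0.0352% lower (1337 at an unadjusted p under 0.05, and 109 by DESeq2). Stc1 and Stc2, at or near 0 counts in BMDM libraries, are left out of the differences with BMDM libraries. For Bnip3 the MAEC minus MEF difference was -0.47 (SE 0.24, adjusted p = 0.642), and for Slc2a1 it was -0.16 (SE 0.185, adjusted p = 0.876). Between MEF and BMDM libraries 0 of the other 8 genes differed, where 0.0117% of genes passed (372 at an unadjusted p under 0.05, and 4 by DESeq2); Slc2a1 had the smallest p, at 0.48 (SE 0.187, adjusted p = 1), and the difference for Angptl4 was 0.50 (SE 0.257, adjusted p = 1). These contrasts share their 0 h libraries.

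**Figure D5:**
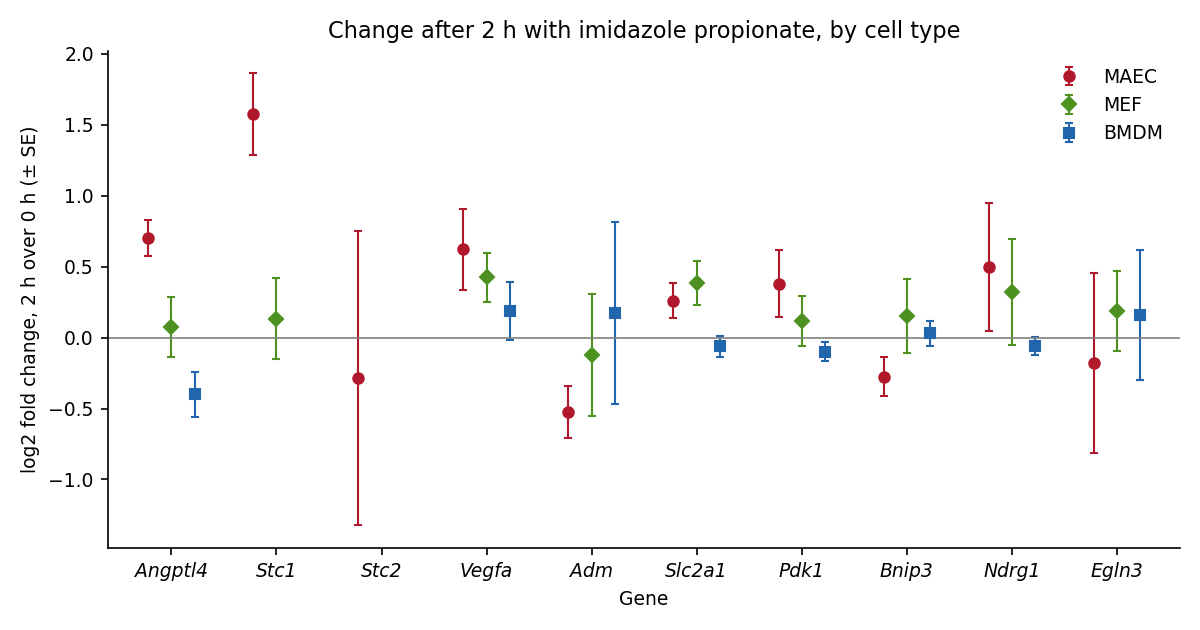
Log2 fold change at 2 h over 0 h of each gene, with SE, from the fits within MAEC-labelled, MEF and BMDM libraries. Angptl4 and Stc1 stand highest in MAEC-labelled libraries at 0.70 and 1.57, values that chose these genes, while the changes of the other 8 genes lie within 3 SE of 0 in each cell type; genes that did not pass the filter on low counts are not drawn.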

How the data were processed

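Bulk RNA-seq was analysed from 27 libraries in 9 groups of 3. Values are RSEM expected counts per gene deposited by the authors, all whole numbers, summing to 18955352 to 61029374 per library; adapters were cut with cutadapt and reads aligned with STAR to mm10/GRCm38.p6, per the submitters' processing notes, with settings, strand and annotation not given in the sources used here. The 9 per-group tables equal the series table in all 680184 cells compared, and no 2 replicates agreed within sampling noise (lowest chi-square per degree of freedom 5.69 over 27 pairs). Genes were filtered with filterByExpr (minimum count 10), scaled by TMM and tested with edgeR 4.0.16 (quasi-likelihood, R 4.3.3) in the 9 libraries of each cell type, and in all 27 for differences between cell types, with Benjamini-Hochberg adjustment over all genes tested and a threshold of 0.05. DESeq2 1.42.0 was an alternative, as were other scalings, filters, sample sets, a block and leaving out libraries. The fits were tested on simulated data. CPM are TMM-scaled; CPM per kb uses exon lengths from GENCODE M21, found for 97.1% of genes. Named genes are the members, from each list up to 4 genes that passed or, where 0 passed, up to 2 with the smallest p, and the 5 genes with at least 1 CPM nearest to Angptl4 and to Stc1. The members and lists were chosen with earlier results of these data known. One gene that the rule for named genes gives is not reported here.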

Additional observations from a re-analysis of the deposited data

Results flagged for a closer look

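Angptl4 lay on opposite sides of its 0 h range in different cells, narrowly so in BMDM libraries. By edgeR none of these changes passed. Its log2 fold changes in MAEC-labelled libraries were 0.13 at 1 h and 0.70 at 2 h, with every ImP library above every 0 h library, as for 5.36% and 8.38% of all genes. The change at 1 h did not pass (adjusted p = 0.852), and it shares its 0 h libraries with the choosing contrast. In BMDM libraries they were -0.39 at 1 h and -0.40 at 2 h, with every ImP library below every 0 h library, as for 5.61% and 6.31% of all genes, and neither passed (adjusted p = 0.922 and 0.746). The margin was narrow: the highest ImP libraries were at 7.15 CPM at 1 h and 7.13 CPM at 2 h, against 7.16 CPM in the lowest 0 h library. The difference between the cell types was not tested, because the value at 2 h in MAEC-labelled libraries chose the gene.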

How the results depend on the processing

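Of 1427 fold changes of the 10 genes recomputed under alternatives, 1372 were scored as kept, 3 lost and 1 gained a call and 51 moved. Kept meant the same direction and side of the threshold. For the chosen pair in contrasts with MAEC-labelled libraries at 2 h, it meant a shift under the spread between libraries, whatever the call. Of the 51, 49 changed sign in a value that had not passed. Outside those contrasts no called value changed sign. By DESeq2 the genes passing were 3 in MAEC-labelled libraries at 1 h, 25 at 2 h (2 of them among the 10 genes, Angptl4 and Stc1, which were chosen on this contrast), 15 and 13 in BMDM libraries, 12 and 4 in MEF libraries, and for the differences in change at 2 h 4 (MEF minus BMDM), 66 (MAEC minus MEF) and 109 (MAEC minus BMDM, 1 of them among the 10, from the chosen pair). Calls of the chosen pair that involve MAEC-labelled libraries at 2 h follow from the choice and support nothing. With no filter on low counts they were 6 in MAEC-labelled libraries at 2 h (2 among the 10, the same chosen pair), 9 and 10 in BMDM, 1 and 1 in MEF libraries and 4 for MAEC minus MEF. With only the groups compared they were 5 and 2 in BMDM libraries, 1 for MEF minus BMDM and 2 for MAEC minus BMDM. With the replicate block, taken from runs of library codes, they were 1 in MEF libraries at 1 h, 1 for MEF minus BMDM, 8 for MAEC minus MEF and 15 for MAEC minus BMDM. Correlations of same-run deviations ran from -0.407 to 0.288, and those of different runs from -0.335 to 0.377. Between 1 h and 2 h the same-run values were positive in MAEC-labelled (0.161, 0.0835 and 0.0439) and MEF libraries (0.174, 0.0244 and 0.288). In BMDM libraries they were negative (-0.0972, -0.132 and -0.407). Whether the runs pair the libraries cannot be decided from these values. MAEC minus MEF gave 2 with RLE scaling, 9 with library totals alone and 2 with a filter at 1 CPM. Without the third BMDM replicates at 1 h and 2 h, 125 and 16 genes passed, 1 of the 10 among them at 1 h (Vegfa). These libraries were left out for their inflammatory genes, which Vegfa followed, so its call is not independent of that choice. Leaving out 1 library gave 0 to 1 genes in MAEC-labelled libraries at each time, 2 to 7 and 1 to 6 in BMDM, 0 to 0 in MEF libraries, 1 to 2 for MEF minus BMDM, 0 to 132 for MAEC minus MEF and 1 to 148 for MAEC minus BMDM (0 to 1 among the 10), both highest without MAEC 0 h replicate 1. For MEF against BMDM libraries at 0 h it gave 10978 to 11058 genes and 7 to 8 of the 10, Stc1 always among them. Adm lost its call at 0.96 (adjusted p = 0.107) without BMDM replicate 1, 1.11 (0.0726) without BMDM replicate 3 and 0.84 (0.155) without MEF replicate 2. The causes were not tested. The biological coefficient of variation was 0.326 in MAEC-labelled, 0.126 in MEF and 0.126 in BMDM libraries.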
